A study of Mus musculus with 30 samples.

Results

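The genes described here are the glucocorticoid receptor and genes that act with it or respond to it, chosen by name as *Nr3c1*, *Nr3c2*, *Hsd11b1*, *Fkbp5*, *Tsc22d3*, *Zbtb16* and *Sgk1*. All 7 are listed among the 24601 genes counted in total muscularis externa (*ME*) RNA and among the 26179 genes counted in *RiboTag* mRNA.

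Glucocorticoids, in mice mainly corticosterone, are adrenal steroids released under stress, surgery included. They bind the glucocorticoid receptor (*Nr3c1*), which leaves its chaperones in the cytoplasm, enters the nucleus and binds palindromic response elements near its target genes, while 11β-hydroxysteroid dehydrogenase type 1 (*Hsd11b1*) regenerates active steroid inside cells. In the inflamed gut wall the receptor is known for restraining cytokine production, and several of its targets are feedback regulators of the receptor or of inflammatory signaling.

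RNA came from the *ME*, the muscle layers of the mouse small bowel with the enteric nervous system between them, after intestinal manipulation (IM), a surgical model of postoperative ileus. *RiboTag* mRNA was precipitated through an HA tag that Cre recombinase had placed on the ribosomal protein RPL22 (allele *Rpl22*tm1.1Psam), here under the *Sox10* promoter of glia and with a tamoxifen-inducible Cre (Sox10-icre/ERT2), so that other *Sox10*-positive cells would be tagged as well. Adult male mice were left unoperated (naïve) or were operated under isoflurane with tramadol as pain medication and killed after 3 h, 24 h or 72 h (IM3h, IM24h, IM72h), so that manipulation, laparotomy, anesthesia and analgesia cannot be told apart. Total *ME* RNA was sequenced from 3 naïve, 3 IM3h, 4 IM24h and 4 IM72h libraries, and *RiboTag* mRNA from 3 naïve libraries and 4 at each later time, and all of these mice carried the *Rpl22* allele and a Cre transgene. The labels name a Gfap-cre line for naïve and IM3h *ME* libraries and the Sox10-icre/ERT2 line for every other library, so that line and time cannot be told apart in total *ME* RNA at IM24h and IM72h against naïve mice. The study injected tamoxifen before its experiments to activate the inducible Cre. Its methods describe no Gfap-cre mice, and whether these received tamoxifen is not known. Any difference in tamoxifen would go with the line. The study counts the libraries of a group as animals, and p-values measure the spread between these libraries.

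Estimated counts summed to between 6603170 and 12866062 in *ME* libraries and between 3010306 and 7899493 in *RiboTag* libraries. Ribosomal RNA took 26.7% to 65.3% of the counts of *RiboTag* IM24h libraries and 64.8% to 84.6% at IM72h, against at most 16.3% in naïve and IM3h *RiboTag* libraries, and the number of genes detected fell from at least 15733 in those libraries to between 8644 and 11415 at IM72h. In the *ME* ribosomal RNA took 23.0% to 42.6% in naïve and IM3h libraries, 7.83% to 16.2% at IM24h and 2.97% to 4.59% at IM72h. In naïve mice the summed level of 6 glial markers was 1561 to 1900 CPM (counts scaled to library size) in *RiboTag* mRNA and 113 to 138 CPM in *ME* RNA. In *RiboTag* mRNA it was 763 to 917 CPM at IM24h and 142 to 1435 CPM at IM72h. *ME* libraries had 160 to 317 CPM at IM72h, so that the lowest *RiboTag* library there showed no enrichment of glia. *Sox10* was lower than in naïve *RiboTag* mRNA at IM72h (adjusted p = 0.00818 in the quasi-likelihood test of edgeR). *RiboTag* levels of 0 or of a few CPM at IM24h and IM72h rest on few counts. At 24 h 1 *RiboTag* library, numbered 3 here, stood apart with 2 counts of *Nr3c1*, and 3 of the 4 *RiboTag* IM72h libraries held 0 or 1 count of *Tsc22d3*.

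The receptor binds as a dimer to an inverted repeat whose consensus reads AGAACA, 3 bases of any kind and TGTTCT, the same on both strands. This palindrome was searched in the genes with 10 kb on each side (GRCm38.p6, the build of mm10), because it is the sequence through which a response to the hormone is best known. It occurred 639 times in the genome, and 365 of 21938 protein-coding genes, or 1.66%, held at least 1 match. *Fkbp5* held 2 matches and *Sgk1* held 1, while these letters were not found around *Tsc22d3*, *Zbtb16*, *Nr3c1*, *Nr3c2* or *Hsd11b1*. The 3 matches are printed on the strand of their gene, with the palindrome in capitals. They lie in introns at chr17:28420321-28420335 and chr17:28442419-28442433 of *Fkbp5* and at chr10:21993701-21993715 of *Sgk1*.

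Fkbp5 intron, site 1: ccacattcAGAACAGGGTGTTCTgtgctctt
Fkbp5 intron, site 2: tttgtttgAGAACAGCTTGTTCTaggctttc
Sgk1 intron: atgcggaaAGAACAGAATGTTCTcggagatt

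The *Sgk1* match also lies in a RefSeq promoter, the stretch before one of the starts of the gene, with 174 bases between palindrome and start. Of 32851 promoters of 300 bases each, from 250 before to 50 after a start, 3 held the palindrome, or 0.00913%. Among 31 promoters of 26 other genes known to respond to glucocorticoids (a list described below), 0 held it. With a palindrome this rare, almost any list of promoters would give 0, so this count cannot tell responsive genes from others. Matches outside the promoters of these other genes are not reported here. The 250 bases before this start, at position 21993890 of chromosome 10, plus strand, are shown because they hold the palindrome and a further half-site (AGAACA on either strand, TGTTCT as printed), both in capitals.

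Sgk1, before this start: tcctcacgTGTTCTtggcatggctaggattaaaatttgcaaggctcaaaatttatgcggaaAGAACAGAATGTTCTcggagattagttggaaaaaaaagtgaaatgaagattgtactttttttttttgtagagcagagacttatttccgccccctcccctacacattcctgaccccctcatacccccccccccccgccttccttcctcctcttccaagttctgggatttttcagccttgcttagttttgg

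The half-site alone occurred in 19% of all promoters, in 4 of the 12 promoters of the 5 genes with an entry and in 9.68% of the 31 promoters of other responsive genes. Among genes of a span like that of *Fkbp5*, 3.78% held a match, and for *Sgk1* the share was 3.67%. Such a match is a description of the sequence and not a measured binding site.

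At IM3h the changes in total *ME* RNA ran in both directions within the set. The target genes *Fkbp5* and *Sgk1* rose and the receptor genes *Nr3c1* and *Nr3c2* fell, so that 4 of 7 genes passed an adjusted p under 0.05 in the quasi-likelihood test of edgeR, where 32.7% of all genes tested did (19.3% upward and 13.4% downward). In *RiboTag* mRNA *Fkbp5*, *Sgk1* and *Zbtb16* rose and none fell, so that 3 of 6 genes tested passed, where 13.3% of all genes did (8.86% upward and 4.44% downward). The median change, as log2 of the fold, was 0.19 over the 7 genes in the *ME* (0.00 over all genes tested) and 0.98 over 6 in *RiboTag* mRNA (−0.04 over all genes). In the *ME* at IM24h 3 of 7 passed, *Fkbp5* and *Sgk1* upward and *Nr3c2* downward, with 29.0% of all genes (15.6% upward and 13.4% downward). At IM72h 6 of 7 passed, with 57.5% of all genes (29.3% upward and 28.3% downward), and 4 of them were upward (*Fkbp5*, *Sgk1*, *Tsc22d3* and *Hsd11b1*). In *RiboTag* mRNA 0 of 6 passed at IM24h, with 0.497% of all genes (0.366% upward and 0.131% downward). At IM72h 1 of 6 passed, downward, with 16.1% of all genes (1.05% upward and 15.1% downward). The unadjusted p at IM24h was under 0.05 for 1 of the 6, *Nr3c2*, and DESeq2 called none. These comparisons with naïve mice share their naïve libraries within a fraction. No gene of the set with an adjusted p under 0.05 against naïve mice turned direction under any scaling tried.

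**Figure D1:**
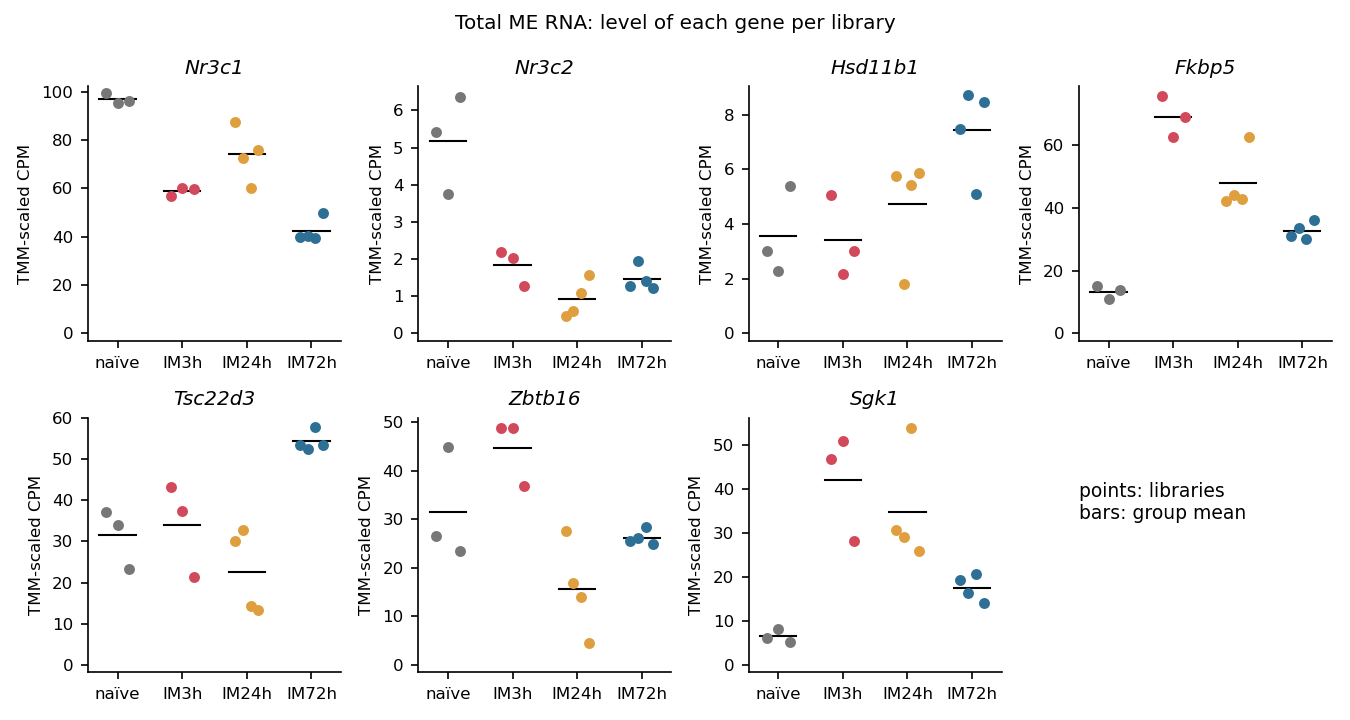
Level of each of the 7 genes in total *ME* RNA, in CPM scaled by the trimmed mean of M values (TMM), for each library (points) with the group mean (bars), each panel on its own linear axis. *Fkbp5* and *Sgk1* were lowest in the 3 naïve libraries, and *Nr3c1* and *Nr3c2* were highest there.

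The glucocorticoid receptor gene *Nr3c1* (chr18:39410545-39519421, minus strand) was measured at 99.4, 95.5 and 96.0 CPM in naïve *ME* libraries and at 56.97, 60.04 and 59.6 CPM at IM3h. At IM24h its levels were 87.4, 72.5, 60.3 and 75.9 CPM, and at IM72h 40.0, 40.5, 39.6 and 50.02 CPM. Every operated *ME* library was below the lowest naïve one, in the order of levels IM24h, IM3h, IM72h, and IM24h and IM3h were separated only by 60.3 against 60.04 CPM. The fall was 1.57-fold at IM3h (log2 −0.65 ± 0.10, SE; edgeR adjusted p = 0.000791) and 2.45-fold at IM72h (−1.29 ± 0.12; edgeR adjusted p = 6.92e-06). At IM24h the estimate was −0.41 ± 0.16 (edgeR adjusted p = 0.0765), with counts scaled by library totals only it was 0.23, and with all groups in 1 fit it passed (−0.41, edgeR adjusted p = 0.0259). Between IM24h and IM72h, which share their line, the level fell 1.85-fold (−0.89 ± 0.15; edgeR adjusted p = 0.00105), and 4 of the 7 genes passed in that comparison, where 38.5% of all genes did (18.6% upward and 19.9% downward).

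In *RiboTag* mRNA *Nr3c1* levels were 37.4, 39.1 and 43.2 CPM in naïve libraries and 33.6, 43.5, 41.5 and 57.8 CPM at IM3h. These groups overlapped, and the estimate was 0.19 ± 0.27 (edgeR adjusted p = 0.717). At IM24h the levels were 43.2, 32.6, 0.869 and 37.1 CPM, and at IM72h 20.5, 18.7, 17.5 and 18.7 CPM on 19 to 44 counts. The IM72h libraries all lay below the naïve ones, and the estimate of −1.02 ± 0.96 had an edgeR adjusted p of 0.701, or −2.70 and 0.0469 with scaling by *Actb*, *Hsp90ab1* and *Rplp1*. *Hsp90ab1* was itself called higher there (log2 1.33 ± 0.34; edgeR adjusted p = 0.0272) and in the *ME* at IM3h. A rising reference gene lowers the estimates of other genes under this scaling, here and below. In naïve mice *Nr3c1* was 1.94-fold lower in *RiboTag* mRNA than in total *ME* RNA (−0.95 ± 0.15; edgeR adjusted p = 0.00270). It was the only 1 of 6 genes tested that passed between the fractions, where 26.1% of all genes did (13.4% higher and 12.7% lower in *RiboTag* mRNA). That call was lost with library totals only (−0.22), with scaling by *Actb*, *Hsp90ab1* and *Rplp1* (−0.86) and with all groups in 1 fit (−1.05), and Cre line and fraction cannot be told apart in it. The IM3h change of *Nr3c1* differed between the fractions by 0.93 ± 0.29 on the log2 scale, with an unadjusted p of 0.00513 and an edgeR adjusted p of 0.121.

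The mineralocorticoid receptor gene *Nr3c2* (chr8:76899442-77245012, plus strand) encodes a receptor that binds corticosterone as well as aldosterone. Its levels were 5.41, 3.74 and 6.36 CPM in naïve *ME* libraries and 2.19, 2.02 and 1.28 CPM at IM3h. At IM24h they were 0.471, 0.601, 1.09 and 1.58 CPM, and at IM72h 1.29, 1.96, 1.41 and 1.21 CPM. Naïve libraries held 18 to 53 counts and operated ones 5 to 25, and no operated library reached a naïve level. *Nr3c2* fell 2.68-fold at IM3h (log2 −1.42 ± 0.39; edgeR adjusted p = 0.0184), 5.56-fold at IM24h (−2.48 ± 0.58; edgeR adjusted p = 0.0102) and 3.81-fold at IM72h (−1.93 ± 0.30; edgeR adjusted p = 0.000295). The IM3h call was lost without IM3h library 3 (−1.23), naïve library 1 (−1.45) or naïve library 3 (−1.30) and with all groups in 1 fit (−1.47, edgeR adjusted p = 0.0524), and the IM24h call without naïve library 1 (−2.46) or 3 (−2.30).

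In *RiboTag* mRNA *Nr3c2* was measured at 7.12, 4.11 and 2.26 CPM in naïve libraries and at 0.549, 1.65, 1.53 and 1.60 CPM at IM3h, where the groups did not overlap but the estimate of −1.70 ± 0.95 had an edgeR adjusted p of 0.289. At IM24h and IM72h all 8 libraries were at 0. Against 3 counts per library, the limit that a count of 0 allows for counting error only, the level was at least 5.20-fold lower than in naïve mice at IM24h and at least 2.47-fold lower at IM72h. The edgeR adjusted p was 0.151 at IM24h and 0.00993 at IM72h, and the latter call was lost in DESeq2 (adjusted p = 0.0623), with all groups in 1 fit (0.0641) and with no filter on low counts, and the gene was not tested with the ribosomal RNA genes left out.

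*Hsd11b1* (chr1:193221634-193264075, minus strand) encodes the reductase that turns 11-dehydrocorticosterone back into corticosterone. It was measured at 3.01, 2.28 and 5.40 CPM in naïve *ME* libraries, at 5.07, 2.16 and 3.03 CPM at IM3h and at 5.74, 1.80, 5.44 and 5.89 CPM at IM24h, all of which overlapped. At IM72h the levels were 7.48, 8.71, 5.09 and 8.48 CPM, of which 3 lay above every naïve library. The rise at IM72h was 1.89-fold (log2 0.92 ± 0.31; edgeR adjusted p = 0.0256). This call was lost without IM72h library 2 (0.86) or 4 (0.85), without naïve library 1 (0.78) or 2 (0.74), with all groups in 1 fit (0.97, edgeR adjusted p = 0.0859) and with scaling by *Actb*, *Hsp90ab1* and *Rplp1* (0.32, edgeR adjusted p = 0.459). In *RiboTag* mRNA naïve and IM24h libraries held fewer than 3 counts each, IM3h libraries reached at most 1.18 CPM, and the IM72h libraries were at 0, 16.1, 0 and 16.3 CPM, so that the gene did not pass the filter on low counts there.

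*Fkbp5* (chr17:28399094-28517527, minus strand) encodes FKBP51, a co-chaperone that lowers the affinity of the receptor for its hormone, and is among the most widely used target genes of the receptor. Its *ME* levels were 15.2, 11.01 and 13.8 CPM in naïve libraries and 75.7, 62.6 and 69.2 CPM at IM3h. They were 42.4, 44.3, 43.1 and 62.7 CPM at IM24h and 31.1, 33.8, 30.1 and 36.4 CPM at IM72h. Every operated library was above all naïve ones, and the group means stood in the order IM3h, IM24h, IM72h, with IM24h library 4 just above the lowest IM3h library. *Fkbp5* rose 5.41-fold at IM3h (log2 2.44 ± 0.15; edgeR adjusted p = 2.35e-06), 3.55-fold at IM24h (1.83 ± 0.22; edgeR adjusted p = 0.000324) and 2.28-fold at IM72h (1.19 ± 0.14; edgeR adjusted p = 4.78e-05). Between IM24h and IM72h it fell 1.56-fold (−0.64 ± 0.16; edgeR adjusted p = 0.00977), a call lost with scaling by *Actb*, *Hsp90ab1* and *Rplp1* (−0.92, edgeR adjusted p = 0.0707).

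In *RiboTag* mRNA *Fkbp5* was at 7.63, 8.79 and 6.89 CPM in naïve libraries and at 35.8, 38.9, 47.9 and 46.8 CPM at IM3h. The lowest IM3h library was far above the highest naïve one, and the rise was 5.63-fold (log2 2.49 ± 0.31; edgeR adjusted p = 0.000389). With all groups in 1 fit, where the spread is shared with the IM24h and IM72h libraries, the estimates of *Fkbp5* (2.43), *Sgk1* (2.496) and *Zbtb16* (1.49) all had an edgeR adjusted p of 1. At IM24h the levels were 6.26, 9.24, 0.435 and 16.4 CPM, around those of naïve mice, with an estimate of 0.15 ± 1.22 (edgeR adjusted p = 0.978). At IM72h they were 4.67, 44.7, 46.1 and 0 CPM, and libraries of that group thus lay on both sides of the naïve range.

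*Sgk1* (chr10:21882184-21999903, plus strand) encodes a serine/threonine kinase of ion transport and cell survival that both corticosteroid receptors induce. It was measured at 6.26, 8.31 and 5.16 CPM in naïve *ME* libraries and at 46.8, 51.1 and 28.3 CPM at IM3h. The levels were 30.7, 29.0, 53.9 and 26.0 CPM at IM24h and 19.4, 16.4, 20.7 and 14.1 CPM at IM72h. All operated libraries were above the naïve ones, IM3h and IM24h overlapped, and IM72h lay below both. The rise was 6.85-fold at IM3h (log2 2.78 ± 0.27; edgeR adjusted p = 3.84e-05), 5.29-fold at IM24h (2.40 ± 0.31; edgeR adjusted p = 0.000471) and 2.54-fold at IM72h (1.35 ± 0.22; edgeR adjusted p = 0.000341). From IM24h to IM72h the level fell 2.11-fold (−1.08 ± 0.24; edgeR adjusted p = 0.00481).

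In *RiboTag* mRNA *Sgk1* was at 15.9, 4.45 and 2.85 CPM in naïve libraries and at 27.1, 44.6, 63.6 and 41.0 CPM at IM3h. All IM3h libraries were above the naïve ones, of which library 1 was the highest. The rise was 5.89-fold (log2 2.56 ± 0.56; edgeR adjusted p = 0.0113), and it was 3.65 on the log2 scale without naïve library 1 and 2.29 without naïve library 2, where the call was lost (edgeR adjusted p = 0.0522). It was also lost with scaling by *Actb*, *Hsp90ab1* and *Rplp1* (2.30, edgeR adjusted p = 0.0576). At IM24h the levels were 17.4, 14.1, 12.6 and 27.98 CPM, with an estimate of 1.27 ± 0.92 (edgeR adjusted p = 0.643). At IM72h they were 0.933, 45.1, 0 and 0 CPM, so that a single library carried the group mean.

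*Zbtb16* (chr9:48654297-48836222, minus strand) encodes the zinc finger repressor PLZF, a strongly glucocorticoid-induced gene in many cell types. In *RiboTag* mRNA it was measured at 31.0, 20.9 and 26.6 CPM in naïve libraries and at 63.6, 54.0, 85.3 and 93.8 CPM at IM3h. The groups were well separated, and the rise was 2.93-fold (log2 1.55 ± 0.29; edgeR adjusted p = 0.00526), or 1.10 with an edgeR adjusted p of 0.131 with scaling by *Actb*, *Hsp90ab1* and *Rplp1*. At IM24h the levels were 7.26, 57.1, 14.8 and 36.9 CPM and at IM72h 87.3, 108, 21.2 and 17.5 CPM, which overlapped the naïve range from both sides at IM24h and spread widely at IM72h.

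In total *ME* RNA *Zbtb16* levels were 26.6, 44.9 and 23.4 CPM in naïve libraries and 48.8, 48.8 and 36.9 CPM at IM3h. Naïve library 2 was above the lowest IM3h library, and the estimate was 0.58 ± 0.24 (edgeR adjusted p = 0.0915), or 0.93 with an edgeR adjusted p of 0.00469 without naïve library 2. At IM24h the levels were 27.6, 16.9, 13.96 and 4.53 CPM (estimate −1.02 ± 0.46; edgeR adjusted p = 0.123), and at IM72h 25.5, 26.1, 28.4 and 25.0 CPM (−0.36 ± 0.20; edgeR adjusted p = 0.155). Of the IM24h libraries, libraries 2 to 4 lay below every naïve library. The estimate at IM24h passed without IM24h library 1 (−1.43, edgeR adjusted p = 0.0457), with scaling by *Actb*, *Hsp90ab1* and *Rplp1* (−1.55, edgeR adjusted p = 0.0266) and with all groups in 1 fit (−1.01, edgeR adjusted p = 0.0420). That at IM72h passed without naïve library 3 (−0.54, edgeR adjusted p = 0.0461) and with scaling by the 3 genes (−0.95, edgeR adjusted p = 0.00220), and it was 0.28 with library totals only. The IM3h change of *Zbtb16* was larger in *RiboTag* mRNA by 1.06 ± 0.40 on the log2 scale, with an unadjusted p of 0.0165 and an edgeR adjusted p of 0.207.

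*Tsc22d3* (chrX:140539528-140600659, minus strand) encodes GILZ, the glucocorticoid-induced leucine zipper, which restrains NF-κB and AP-1. Its *ME* levels were 37.1, 34.1 and 23.4 CPM in naïve libraries, 43.1, 37.4 and 21.4 CPM at IM3h and 30.04, 32.8, 14.4 and 13.4 CPM at IM24h. These groups overlapped, with estimates of 0.19 ± 0.26 at IM3h (edgeR adjusted p = 0.610) and −0.50 ± 0.33 at IM24h (edgeR adjusted p = 0.289, or −0.995 and 0.0386 with scaling by *Actb*, *Hsp90ab1* and *Rplp1*). At IM72h the levels were 53.3, 52.4, 57.8 and 53.5 CPM, above every other *ME* library. The rise over naïve mice was 1.61-fold (log2 0.69 ± 0.15; edgeR adjusted p = 0.00295) and that over IM24h 2.25-fold (1.17 ± 0.27; edgeR adjusted p = 0.00644). Against naïve mice the call was lost with scaling by *Actb*, *Hsp90ab1* and *Rplp1* (0.08, edgeR adjusted p = 0.714) and with all groups in 1 fit (0.71, edgeR adjusted p = 0.0633).

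In *RiboTag* mRNA *Tsc22d3* was at 48.6, 22.8 and 29.6 CPM in naïve libraries and at 51.2, 24.3, 50.5 and 47.0 CPM at IM3h. The groups overlapped, and the estimate was 0.41 ± 0.35 (edgeR adjusted p = 0.526). At IM24h the levels were 21.4, 14.9, 55.6 and 30.6 CPM, and at IM72h 0, 0, 0.922 and 36.2 CPM. *Tsc22d3* thus stood apart from *Fkbp5* and *Sgk1* at IM3h in both fractions, though the difference between genes was not tested.

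**Figure D2:**
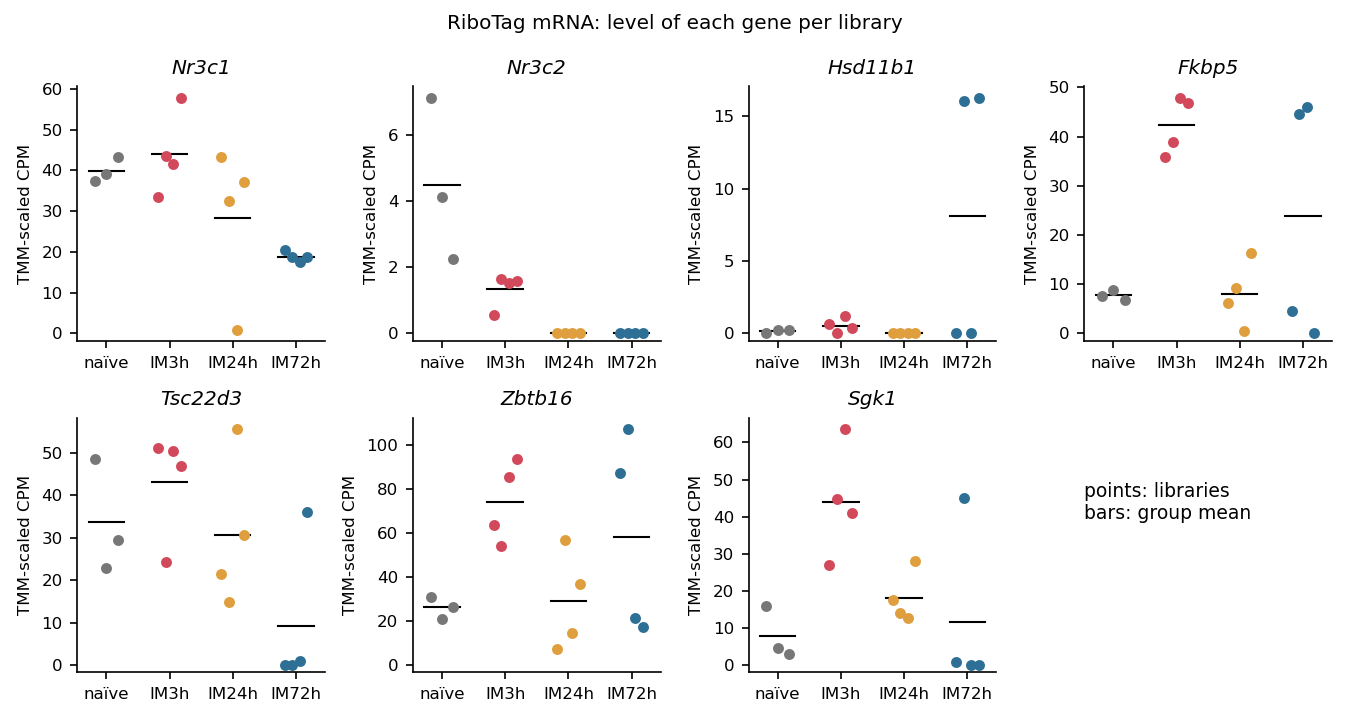
Level of each of the 7 genes in *RiboTag* mRNA, in TMM-scaled CPM, for each library (points) with the group mean (bars), each panel on its own linear axis. *Fkbp5*, *Sgk1* and *Zbtb16* were higher in all 4 IM3h libraries than in the naïve ones, *Nr3c2* was at 0 at IM24h and IM72h, and the IM72h libraries spread widely for the target genes.

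From IM3h to IM24h the estimates in *RiboTag* mRNA were −2.28 ± 0.74 for *Fkbp5*, −1.19 ± 0.49 for *Sgk1*, −1.27 ± 0.56 for *Zbtb16* and −0.41 ± 0.50 for *Tsc22d3*. The groups did not overlap for *Fkbp5* but did for *Sgk1*, *Zbtb16* and *Tsc22d3*. None of the 5 genes tested passed in edgeR after adjustment, where 1.90% of all genes did (0.965% upward and 0.937% downward). *Fkbp5*, *Sgk1* and *Zbtb16* had an unadjusted p under 0.05 and over 2-fold change, as had 14.1% of all genes, and *Fkbp5* passed in DESeq2 (−2.29, adjusted p = 0.0152). The difference in change between the fractions, tested as an interaction in edgeR, passed for 0 of 7 genes at IM3h, where 1.66% of all genes did, for 0 of 6 at IM24h, with 0.537%, and for 1 of 7 at IM72h, with 23.3%. At IM3h the unadjusted p was under 0.05 for 2 of them, *Nr3c1* and *Zbtb16*, and at IM24h for *Nr3c2* alone. DESeq2 called none of them at IM3h or IM24h. For *Fkbp5* the interaction at IM3h was 0.14 ± 0.31, and for *Sgk1* it was −0.11 ± 0.67. Cre line and fraction cannot be told apart in any interaction at IM3h, those of *Nr3c1* and *Zbtb16* given above included. At IM24h and IM72h the line also changes with time within the *ME*.

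**Figure D3:**
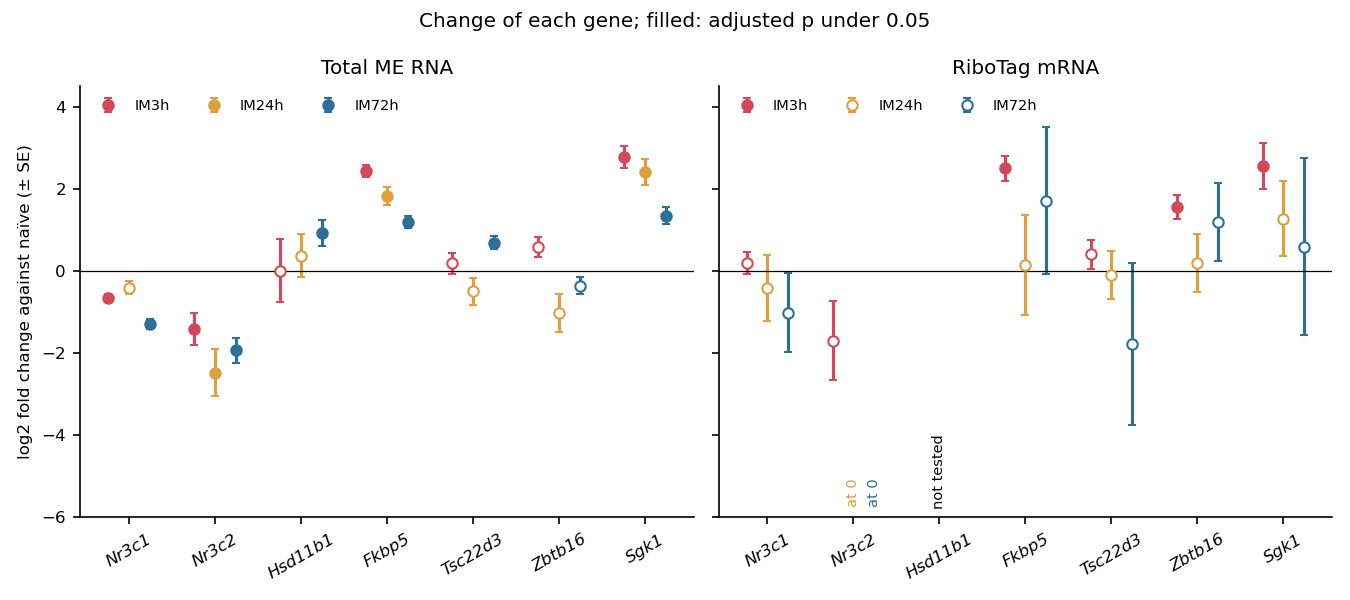
Log2 fold change of each gene against naïve mice of the same fraction, with its standard error, at IM3h, IM24h and IM72h. Filled points had an edgeR adjusted p under 0.05, *Nr3c2* at 0 is marked without a value, and *Hsd11b1* was not tested in *RiboTag* mRNA. Errors were widest in *RiboTag* mRNA at IM72h.

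Markers of other cells moved with these changes in total *ME* RNA. The summed level of 4 neutrophil markers was 0.360 to 0.831 CPM in naïve libraries, 21.1 to 30.6 CPM at IM3h, 42.1 to 189 CPM at IM24h and 18.04 to 51.5 CPM at IM72h, and that of 3 monocyte markers 9.74 to 11.3, 17.1 to 23.4, 144 to 163 and 75.9 to 92.2 CPM. In the same order of groups, 5 macrophage markers summed to 105 to 109, 70.3 to 82.4, 166 to 281 and 351 to 428 CPM. Those of smooth muscle (5 genes) summed to 20816 to 21646, 15339 to 18012, 2849 to 9931 and 11402 to 20278 CPM. Mesothelial markers (4 genes) summed to 86.3 to 124, 1.73 to 11.4, 6.51 to 72.8 and 30.9 to 74.0 CPM. For fibroblasts (5 genes) the sums were 1933 to 2049, 858 to 950, 1111 to 2817 and 3398 to 4159 CPM. For interstitial cells of Cajal (2 genes) they were 205 to 221, 148 to 150, 123 to 234 and 78.9 to 95.6 CPM. For adipocytes (4 genes) they were 271 to 384, 207 to 451, 19.2 to 52.7 and 35.2 to 164 CPM. Fewer cells of a type and less RNA per cell cannot be told apart in such bulk samples. In *RiboTag* mRNA at IM3h the neutrophil markers summed to 2.61 to 9.86 CPM, with *Mmp8*, *Retnlg* and *S100a8* at 0 in every naïve library, and the glial markers to 1314 to 2831 CPM, with *Sox10* and *Erbb3* called lower and 1 of the 6 higher. From naïve to IM3h *RiboTag* libraries the markers of smooth muscle went from 4398 to 6670 CPM to 1712 to 4016 CPM, those of fibroblasts from 650 to 756 CPM to 218 to 307 CPM and those of mesothelium from 84.5 to 239 CPM to 7.07 to 68.5 CPM. The part of these cells in the changes of the 7 genes was not tested.

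A list of 28 other genes known to respond to glucocorticoids moved mostly upward at IM3h. Like the 7 genes and the other lists, it was chosen with earlier results of these data known. Its counts beside those of all genes are therefore a description and no independent support. In total *ME* RNA 16 of them rose and 2 fell, at a median of 1.65 on the log2 scale, beside 19.3% and 13.4% of all genes, and in *RiboTag* mRNA 14 of 26 tested rose and none fell, with a median of 1.13, beside 8.86% and 4.44% of all genes. In the *ME* the metallothionein gene *Mt1* rose by 5.58 ± 0.21 on the log2 scale, the transcription factor gene *Cebpd* by 5.33 ± 0.25, *Errfi1*, an inhibitor of the EGF receptor, by 4.34 ± 0.20 and the cell cycle inhibitor *Cdkn1a* by 3.90 ± 0.16. The perilipin gene *Plin4* fell by 0.90 ± 0.13 and the transcription factor gene *Klf15* by 1.69 ± 0.42. In *RiboTag* mRNA *Mt2* rose by 6.996 ± 0.72, *Mt1* by 5.14 ± 0.41, *Errfi1* by 4.63 ± 0.45, *Nfkbia*, the inhibitor of NF-κB, by 4.03 ± 0.38 and the clock gene *Per1* by 2.89 ± 0.42. Many of these genes, such as *Mt1*, *Mt2*, *Cebpd*, *Nfkbia* and *Lcn2*, are also known to respond to cytokines.

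At IM24h 13 of the 28 genes rose and 5 fell in the *ME* (median 0.70), beside 15.6% and 13.4% of all genes. At IM72h 14 rose and 4 fell (median 0.59), beside 29.3% and 28.3% of all genes. *Lcn2*, an iron-binding protein of neutrophils and epithelia, rose by 7.20 ± 0.53 at IM24h and 5.54 ± 0.33 at IM72h, and the interleukin-1 decoy receptor gene *Il1r2* by 4.95 ± 0.64 and 4.82 ± 0.47. The metabolic genes *Plin4*, *Acsl1* and *Klf15* and the transcription factor gene *Klf9* fell at both times, *Plin4* by 2.34 ± 0.30 and *Acsl1* by 1.13 ± 0.17 at IM24h. Summed adipocyte markers fell as well, from 271 to 384 CPM in naïve *ME* libraries to 19.2 to 52.7 CPM at IM24h and 35.2 to 164 CPM at IM72h. The part of adipocytes in the fall of these genes was not tested. From IM24h to IM72h 4 of the 28 rose and 9 fell, among them *Mt2* by 3.65 ± 0.43, beside 18.6% and 19.9% of all genes. In *RiboTag* mRNA *Nfkbia* alone passed at IM24h (2.19 ± 0.44; edgeR adjusted p = 0.0499), where 0.366% of all genes were higher, and 8 of 25 tested were lower at IM24h than at IM3h, where 0.937% of all genes were. At IM72h 4 of 23, *Klf15*, *Errfi1*, *Cd163* and *Bcl6*, were lower than in naïve mice, a share near the 15.1% of all genes. In naïve mice 6 of 25 tested were lower in *RiboTag* mRNA than in *ME* RNA and none was higher, beside 12.7% and 13.4% of all genes.

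**Figure D4:**
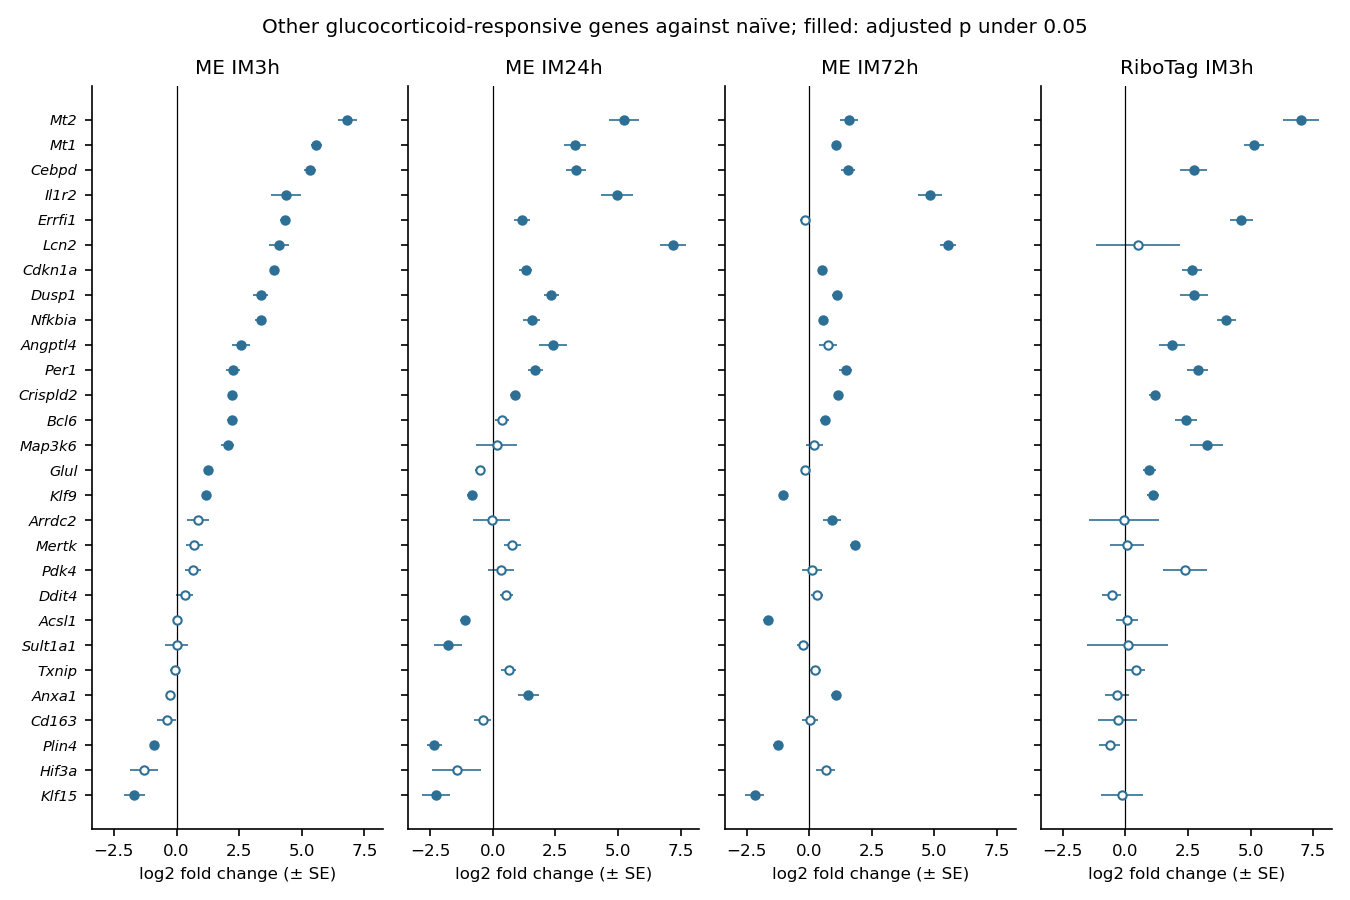
Log2 fold change with standard error of the 28 other glucocorticoid-responsive genes against naïve mice, in *ME* RNA at IM3h, IM24h and IM72h and in *RiboTag* mRNA at IM3h, ordered by the change in the *ME* at IM3h. Filled points had an edgeR adjusted p under 0.05, and a gene that was not tested has no point. *Mt2* and *Mt1* rose most at IM3h in both fractions, and *Lcn2* led at IM24h.

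Of 14 chaperones and coregulators of the receptor, 9 rose and none fell in the *ME* at IM3h, beside 19.3% and 13.4% of all genes. *Hsp90aa1*, the inducible chaperone that holds the receptor in its hormone-binding form, rose by 1.74 ± 0.14 on the log2 scale, *Hspa8* by 1.32 ± 0.11, *Hsp90ab1* by 1.05 ± 0.12, the coregulator *Nrip1* by 1.08 ± 0.12 and the co-chaperone *Stip1* by 0.94 ± 0.14. In *RiboTag* mRNA at IM3h 3 of 14 rose, *Nrip1* by 1.51 ± 0.25, *Hsp90aa1* by 1.42 ± 0.31 and *Ptges3*, the p23 co-chaperone, by 0.75 ± 0.22, beside 8.86% of all genes. At IM24h 1 rose and 2 fell in the *ME*, where *Fkbp4*, the co-chaperone that FKBP51 competes with, fell by 0.56 ± 0.18, and at IM72h 3 rose and 5 fell, all by less than 2-fold. These counts were below the 29.0% of all genes at IM24h and near the 57.5% at IM72h, and are no result about the list. In *RiboTag* mRNA at IM72h *Hsp90aa1* was higher by 1.75 ± 0.46 (edgeR adjusted p = 0.0309) and *Hsp90ab1* by 1.33 ± 0.34 (edgeR adjusted p = 0.0272). No other gene of the list was called there, and 1.05% of all genes were higher.

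Genes of steroid handling and sex steroid receptors were measured as well. The counts below stand beside 19.3% of all genes called higher and 13.4% called lower in the *ME* at IM3h. Of 13 genes of steroid handling 8 were tested in the *ME* at IM3h, where *Abcb1b*, a drug and steroid exporter, rose by 2.77 ± 0.34 and *H6pd*, which supplies the cofactor of 11β-hydroxysteroid dehydrogenase type 1, by 0.89 ± 0.18, while *Srd5a3* fell by 1.18 ± 0.27 and *Hsd17b4* by 0.60 ± 0.17. In *RiboTag* mRNA at IM3h *Abcb1b* rose by 2.76 ± 0.82. The estrogen receptor gene *Esr1* fell in the *ME* by 1.12 ± 0.33 at IM3h and 1.99 ± 0.26 at IM72h, while the progesterone receptor gene *Pgr* rose by 0.83 ± 0.14 at IM72h. At IM72h the line, and with it any difference in tamoxifen, cannot be told apart from time. Among relatives and substrates of the kinase SGK1, 3 of 8 tested rose in the *ME* at IM3h, *Ndrg1* by 1.65 ± 0.13, beside 19.3% of all genes. Of 3 relatives of *Tsc22d3*, *Tsc22d2* rose by 1.35 ± 0.12 and *Tsc22d1* by 1.10 ± 0.12 in the *ME* at IM3h, when *Tsc22d3* itself did not pass.

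Counts of *Nr3c1* fell on transcripts with different 3′ ends, which matters for libraries of 3′ ends. A transcript annotated to end at position 39414482 of chromosome 18, 3935 bases before the form that ends at 39410547, took 2.70%, 2.84% and 1.03% of the *Nr3c1* counts in naïve *ME* libraries and 12.8%, 9.82% and 11.6% at IM3h. The groups did not overlap, at 11.4 ± 1.52% against 2.19 ± 1.01% (SD, n = 3 each), with an exact two-sided permutation p of 0.1, the smallest that 3 against 3 libraries can give. The share was 3.01% to 32.0% at IM24h and at most 4.40% at IM72h. In *RiboTag* mRNA it was 23.8%, 0.315% and 33.7% in naïve libraries and 62.6%, 46.1%, 37.5% and 78.0% at IM3h, again without overlap. The means were 56.1 ± 17.95% (SD, n = 4) and 19.2 ± 17.1% (SD, n = 3), with an exact two-sided permutation p of 0.0571, also the smallest possible. At IM24h the 3 *RiboTag* libraries with at least 10 counts had shares of 72.8%, 100% and 74.2%. Reads were split among transcripts by estimation: in 23 libraries the counts of the forms ending at 39410547 and 39410545 stood in the same ratio of 2.31, and such pairs were not read as separate measurements.

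**Figure D5:**
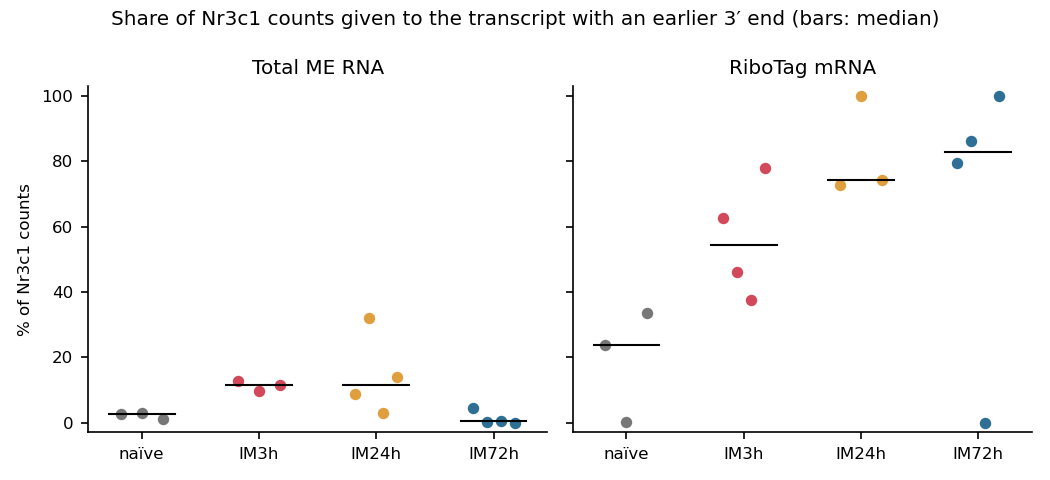
Share of the *Nr3c1* counts of a library that was assigned to the transcript with the earlier 3′ end, in percent, in *ME* RNA and *RiboTag* mRNA (points: libraries with at least 10 counts, bars: medians). In both fractions the IM3h libraries lay above the naïve ones, and the group medians were higher in *RiboTag* mRNA, where IM72h libraries held only 19 to 44 counts.

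Across the 14 *ME* libraries, which share the 4 groups, their depth and their cell makeup, the log2 level of *Fkbp5* was most correlated with that of *Sgk1* within the set (Pearson r = 0.885). Among 17919 genes the levels most like *Fkbp5* were those of *Junb* (r = 0.968), *Cd44* (0.960) and *Plekho2* (0.956), and among those most like *Sgk1* were *Utp4* (0.964) and *Mmp8* (0.952). *Nr3c1* was most like *Bnc2* (0.964), *Nr3c2* most like *Lyrm9* (0.950), *Tsc22d3* most like *S100pbp* (0.926), *Zbtb16* most like *Fabp3* (0.915) and *Hsd11b1* most like *Kif3c* (0.934). These values describe the libraries at hand and carry no test.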

How the data were processed

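Small bowel *ME* was lysed, and total RNA or *RiboTag* mRNA was made into 3′ end libraries. The authors trimmed reads with cutadapt, aligned them with STAR to mm10 and quantified Ensembl features in Partek (the labels name no versions). The deposited tables hold estimated counts without scaling, per gene for the *ME* (per transcript for the *Nr3c1* shares) and per transcript for *RiboTag* mRNA, and list features with at least 10 counts in all. The authors' comparison tables (fold changes and p-values) were not used. Libraries were grouped by the group entry of the tables (of 4 naïve *RiboTag* samples in the labels the tables have 3), and library numbers follow the order of names.

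*RiboTag* transcript counts were summed by symbol, and counts were rounded. Under R 4.3.3, edgeR 4.0.16 compared the groups by the two-sided quasi-likelihood test after filterByExpr and TMM scaling, fitted to the groups compared and adjusted over all genes (Benjamini-Hochberg). A call is an adjusted p under 0.05, and the study's threshold (unadjusted p under 0.05, over 2-fold) was counted beside it. The interaction joined both fractions by symbol. Alternatives were DESeq2 1.42.0, other scalings, no filter, all groups in 1 fit, 26 ribosomal RNA genes left out and each library left out. Genes named are the 7 genes and, of each list, up to 5 rising and 5 falling genes with the smallest adjusted p (a few genes of the lists are not reported here). The 7 genes, the lists and the tests were chosen with earlier results of these data known. Tests were checked on simulated data. Sequences and starts are those of RefSeq (GRCm38.p6), with promoters for 5 of the 7 genes. Gene and transcript coordinates follow GENCODE for mm10.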

Additional observations from a re-analysis of the deposited data

Results flagged for a closer look

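Of 32 groups of 4 libraries looked at, 8 had a highest or lowest library whose distance from the nearest other, divided by the range of the group, was above the 95% critical value of Dixon's test, where chance gives about 1 in 20. In the *ME* these were *Fkbp5* at 62.7 CPM in IM24h library 4, *Sgk1* at 53.9 CPM in IM24h library 3, *Nr3c1* at 50.02 CPM in IM72h library 4 and *Hsd11b1* at 1.80 CPM in IM24h library 2. In *RiboTag* mRNA they were *Tsc22d3* at 24.3 CPM in IM3h library 2 and 36.2 CPM in IM72h library 4, *Sgk1* at 45.1 CPM in IM72h library 2 and *Nr3c2* at 0.549 CPM in IM3h library 1.

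The change at IM3h differed between the fractions for 4 genes of the lists other than markers, each with a smaller or opposite change in *RiboTag* mRNA (edgeR interaction). Over all genes tested, 1.66% differed. Cre line and fraction cannot be told apart in these differences. The mean level of *Ndrg1*, a substrate of SGK1, went from 36.4 to 109 CPM in the *ME* and from 130 to 99.2 CPM in *RiboTag* mRNA (adjusted p = 0.0158). *Tsc22d1* went from 234 to 477 CPM and from 93.3 to 76.5 CPM (adjusted p = 0.0166), and *H6pd* from 22.9 to 40.2 CPM and from 20.9 to 8.86 CPM (adjusted p = 0.0325). *Crispld2*, a secreted glycoprotein gene, went from 119 to 530 CPM and from 80.8 to 175 CPM, so that it was higher at IM3h in both (adjusted p = 0.0362).

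At IM72h the change differed for 12 genes of the set and these lists. That is a smaller share of those tested than the 23.3% of all genes, so the count is no result about them. Of all 16527 genes tested 23.3% differed, 3488 of them lower in *RiboTag* mRNA and 355 higher, so that a lower change was common there. It was lower in *RiboTag* mRNA for *H6pd* (edgeR adjusted p = 0.000485), *Bcl6* (0.000602), *Errfi1* (0.00211), *Cd163* (0.00237), *Sgk3* (0.00378), *Arrdc2* (0.00662), *Nr3c2* (0.00785), *Klf15* (0.0143), *Tsc22d1* (0.0236), *Mt2* (0.0249) and *Hif3a* (0.0441), and higher for *Acsl1* (0.0170), by 3.43 on the log2 scale. The *RiboTag* IM72h libraries held between 513188 and 1357362 counts outside ribosomal RNA, and most of the 11 genes lower there were at or near 0 in them. The *ME* libraries at IM72h also differ in Cre line from the naïve *ME* ones, which cannot be told apart from time.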

How the results depend on the processing

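Over the 12 comparisons, the estimates of the 7 genes kept direction and side of the threshold in 523 cases under other settings and in 614 with 1 library left out; in 41 and 38 the sign turned, in 17 and 10 a call was lost, and in 11 and 9 a call was gained. Low counts limit *Nr3c2* and *Hsd11b1* in both fractions and every gene in *RiboTag* mRNA at IM72h, and line, anesthesia and drugs cannot be told apart from the operation as described above. Causes were not tested unless the setting itself shows them, as with fewer libraries or a shared spread.

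Scaling moved the median of all genes. With library totals only it moved by −0.26, 0.64 and 0.60 in the *ME* (IM3h, IM24h, IM72h) and by −0.20, −0.85 and −1.73 in *RiboTag* mRNA (same times). Scaled by *Actb*, *Hsp90ab1* and *Rplp1*, the shifts were −0.41, −0.37, −0.60, −0.40, −1.40 and −1.67. *Hsp90ab1* was itself called higher in the *ME* at IM3h and in *RiboTag* mRNA at IM72h, which lowers other estimates under this scaling. Its part in the calls lost or gained was not tested. The share of calls that were higher went from 59.0% to 33.9% and 22.7% in the *ME* at IM3h, from 53.9% to 89.7% and 28.9% at IM24h, from 50.9% to 81.2% and 20.1% at IM72h, and from 66.6% to 51.2% and 44.2% in *RiboTag* mRNA at IM3h and from 6.48% to 1.39% and 1.57% at IM72h.

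Counts of the 7 genes called changed as follows. Scaled by *Actb*, *Hsp90ab1* and *Rplp1*, they were 5 in the *ME* at IM24h, 1 in *RiboTag* mRNA at IM3h, 2 at IM72h and 0 between the naïve fractions. With all groups in 1 fit they were 5, 0, 0 and 0. With p under 0.05 and over 2-fold they were 1 in *RiboTag* mRNA at IM24h, 2 between IM24h and IM72h in the *ME*, 3 between IM3h and IM24h in *RiboTag* mRNA, 0 between naïve fractions and 1, 1 and 2 for the interactions at IM3h, IM24h and IM72h. With DESeq2 they were 0 in *RiboTag* mRNA at IM72h, 1 between IM3h and IM24h and 2 for the IM72h interaction, the latter also with library totals. Between naïve fractions they were 2 with library totals, 2 with ribosomal RNA genes left out and 2 with no filter on low counts, and in *RiboTag* mRNA at IM72h 0 in the latter 2 settings.

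Counts of the 28 other responsive genes called changed as well. Scaled by *Actb*, *Hsp90ab1* and *Rplp1* they were 11 in the *ME* at IM24h, 5 in *RiboTag* mRNA at IM3h, 0 at IM24h, 5 between IM3h and IM24h, 3 between naïve fractions, and 0 and 1 for the interactions at IM3h and IM24h. With all groups in 1 fit they were 3 in *RiboTag* mRNA at IM3h, 2 between IM3h and IM24h, 0 between naïve fractions and 0 for the IM3h interaction. With p under 0.05 and over 2-fold they were 8 in *RiboTag* mRNA at IM24h, 14 between IM3h and IM24h, and 3 and 9 for the interactions at IM3h and IM24h. With DESeq2 they were 5 in *RiboTag* mRNA at IM24h, 1 at IM72h, 13 between IM3h and IM24h, and 2 and 2 for those interactions. With library totals they were 0 in *RiboTag* mRNA at IM24h, 5 between IM3h and IM24h, and 0 and 4 for those interactions. With ribosomal RNA genes left out they were 0 at IM24h and 2 at IM72h in *RiboTag* mRNA, and 0 at IM72h with no filter.

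Log2 estimates changed sign as follows. With library totals they were −0.051 for *Tsc22d3* and −0.29 for *Hsd11b1* in the *ME* at IM3h, 0.15 for *Tsc22d3* and 0.23 for *Nr3c1* at IM24h and 0.28 for *Zbtb16* at IM72h. In *RiboTag* mRNA they were −0.034 for *Nr3c1* at IM3h, −0.67 for *Fkbp5* and −0.93 for *Zbtb16* at IM24h, −0.24, −0.41 and −0.84 for *Fkbp5*, *Zbtb16* and *Sgk1* at IM72h and 0.27 for *Fkbp5* between naïve fractions. For the interactions they were −1.24, −0.58 and −1.35 for *Tsc22d3*, *Zbtb16* and *Nr3c1* at IM24h and −2.02 and −0.67 for *Fkbp5* and *Zbtb16* at IM72h. Scaled by *Actb*, *Hsp90ab1* and *Rplp1*, they were −0.21 for *Tsc22d3* and −0.41 for *Hsd11b1* in the *ME* at IM3h, and in *RiboTag* mRNA −0.31 for *Nr3c1* at IM3h, −1.36 and −1.64 for *Fkbp5* and *Zbtb16* at IM24h and −0.49 and −0.83 for *Zbtb16* and *Sgk1* at IM72h. For the interactions they were −0.67, −0.084 and −0.84 for *Tsc22d3*, *Zbtb16* and *Nr3c1* at IM24h and −0.46 for *Fkbp5* at IM72h. *Hsd11b1* in the *ME* at IM3h, where the estimate was near 0, was −0.0050 in DESeq2, −0.0096 with RLE size factors, −0.037 without ribosomal RNA genes, −0.0078 with no filter and −0.051 with all groups in 1 fit. *Zbtb16* between naïve fractions was −0.011 with no filter and −0.039 with all groups. The interaction of *Nr3c1* was −0.0098 in DESeq2, −0.0027 with RLE and −0.11 without ribosomal RNA genes at IM24h, and 0.41, 0.45 and 0.28 in DESeq2, with RLE and with all groups at IM72h.

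Leaving out 1 library at a time, calls among the 28 genes ranged from 0 to 2 in *RiboTag* mRNA at IM24h, from 2 to 10 at IM72h and from 3 to 9 between IM3h and IM24h, and for the interactions from 0 to 2 at IM3h, 0 to 2 at IM24h and 5 to 14 at IM72h. Calls among the 7 genes ranged from 1 to 2 in *RiboTag* mRNA at IM72h, between naïve fractions and for the IM72h interaction. In the *ME* the ranges of log2 estimates were −0.049 to 0.43 for *Tsc22d3*, 0.35 to 0.93 for *Zbtb16*, −1.58 to −1.23 for *Nr3c2* and −0.42 to 0.38 for *Hsd11b1* at IM3h, −1.43 to −0.70 for *Zbtb16* and −2.85 to −2.25 for *Nr3c2* at IM24h, −0.54 to −0.01 for *Zbtb16* and 0.74 to 1.36 for *Hsd11b1* at IM72h and 0.35 to 1.04 for *Zbtb16* between IM24h and IM72h. In *RiboTag* mRNA they were 2.18 to 3.65 for *Sgk1* at IM3h, −0.45 to 0.54 for *Fkbp5*, −0.52 to 0.26 for *Tsc22d3* and −0.35 to 0.54 for *Zbtb16* at IM24h and −6.93 to −1.35 for *Tsc22d3* and −4.31 to 1.64 for *Sgk1* at IM72h. Without IM72h library 4 *Tsc22d3* was the one at −6.93 (edgeR adjusted p = 0.0403). Between naïve fractions they were −0.16 to 0.36 for *Zbtb16*, −0.56 to 0.93 for *Sgk1* and −0.42 to 0.40 for *Nr3c2*. For the interactions they were −0.51 to 0.97 for *Sgk1* and −0.51 to 0.31 for *Nr3c2* at IM3h, −0.010 to 0.77 for *Tsc22d3* and −0.47 to 0.41 for *Nr3c1* at IM24h, and −0.41 to 0.66 for *Fkbp5*, −8.20 to −2.39 for *Tsc22d3*, −5.82 to 0.29 for *Sgk1*, −0.10 to 0.085 for *Nr3c1* and 4.67 to 8.004 for *Hsd11b1* at IM72h.

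No paired analysis was possible because the tables name their libraries without the replicate numbers of the labels.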
